A study of Homo sapiens with 6 samples.

Results

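The 6 genes examined here, MSH3, MSH6, PMS1, PMS2, MLH3 and EXO1, act in DNA mismatch repair and were taken by name from a table of 58735 genes measured by RNA sequencing of RKO cells. RKO is an established human colorectal carcinoma line that is deficient in mismatch repair. Cells stably overexpressing the long non-coding RNA LOC101927668 (LOC_OE, 3 libraries) were compared with control cells (Vector, 3 libraries), to find genes whose expression differed with LOC101927668. Both groups carry the same RKO background. The stable overexpressing cells were made with a lentivirus carrying the full LOC101927668 transcript and selected with puromycin, and the paper compares them with a control vector. The control is labelled a negative control, and the design gives 3 biological replicates a group. Whether a line came from 1 clone is not given in the sources used here, so a difference between the lines and an effect of LOC101927668 cannot be told apart.

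Mismatch repair removes the wrong bases and the small loops that DNA polymerases leave behind during replication. The MutS homologs recognize the error: MSH6 and MSH3 compete for a common partner, and the MSH6 form prefers mismatches and very short loops while the MSH3 form prefers larger loops. The MutL homologs PMS2, PMS1 and MLH3 also pair with a common partner, PMS2 giving the main nicking enzyme of human mismatch repair, MLH3 a form best known from meiosis, and PMS1 a form with little known role. EXO1 is the exonuclease that degrades the strand carrying the error, after which the PCNA clamp, its RFC loader, the RPA single-strand binding proteins, DNA polymerase delta (POLD subunits) and the ligase LIG1 rebuild it. The common partners were not analysed here. When repair fails, runs of a single base change length, and this is the mark of microsatellite instability in colorectal cancer.

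The mismatch repair genes themselves carry such runs in their coding sequences, and the longest are shown here because they are the kind of site that the pathway normally protects. In the reference coding sequences on GRCh38 (GENCODE version 29 transcripts), all 6 genes had at least 1 run of 7 or more identical bases. Coding sequences of other genes were not searched, so whether such runs are particular to these genes was not tested. Among the 6 genes, the longest was the run of 9 A in MLH3, at coding positions 1747 to 1755 (chr14:75047901-75047909, minus strand). MLH3 also held a run of 8 A at 2014 to 2021, which is not printed. MSH3 had a run of 8 A at coding positions 1141 to 1148 (chr5:80675096-80675103, plus strand), MSH6 a run of 8 C at 3254 to 3261 (chr2:47803501-47803508, plus strand), and PMS2 a run of 8 A at 1232 to 1239 (chr7:5987526-5987533, minus strand). In PMS1 and EXO1 the longest run was 7 bases. The runs are printed in capitals, on the coding strand, with 8 bases on each side. The deposited values hold no sequence, so the length of these runs in the sequenced cells was not measured.
MLH3: agaaagagAAAAAAAAAgaatctag
MSH3: ttagggacAAAAAAAAgggcaaca
MSH6: ggaagataCCCCCCCCttcttaga
PMS2: tggagaagAAAAAAAAgacgtgtc

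Promoter sequences are shown for 4 of the 6 genes because the pathway is tied to DNA replication and E2F factors drive replication genes. Windows from 250 bases before to 50 bases after each RefSeq start (GRCh38.p14) were searched on both strands for the E2F words TTTCCCGC, TTTGGCGC, TTTCGCGC and TTTGCCGC. MSH3, MSH6, PMS2 and EXO1 held a match, and MLH3 and PMS1 held none. Over all 27305 genes with a window, 3.99% held a match. The same windows were also searched on both strands for the CCAAT box (CCAAT), which MSH6, PMS1 and PMS2 held, 3 of the 6 genes, against 39.7% of all genes. In MSH3 a word on each strand overlapped in the same stretch, and 1 of them is shown (chr5:80654534-80654563). The sites in MSH6 (chr2:47783137-47783166) and EXO1 (chr1:241848197-241848226) had their word 3 and 4 bases after a RefSeq start of each gene. The site in PMS2 (chr7:6009131-6009160, minus strand) had its word 43 bases before one of the RefSeq starts of the gene and 100 bases before the other. In the comparison of expression given below, MSH3 and MSH6, with an E2F match, and PMS1, without one, passed the threshold. PMS2 and EXO1, with a match, and MLH3, without one, did not. Whether E2F factors had a part in these values was not tested. The words are in capitals, and a match is a description of the sequence only.
MSH3: gcgcggtcaagTTTGGCGCgaaattgtggc
MSH6: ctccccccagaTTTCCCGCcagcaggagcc
PMS2: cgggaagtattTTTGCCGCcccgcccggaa
EXO1: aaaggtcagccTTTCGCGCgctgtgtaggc

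Values were deposited as FPKM, the number of fragments divided by gene length and by library size. The libraries held between 15008842 and 18410231 reads on genes. LOC101927668 (ENSG00000243004) was read 1, 1 and 0 times in the Vector libraries and 231, 270 and 276 times in the LOC_OE libraries. LOC_OE replicate 1 stood apart, with Pearson correlations across genes of 0.967 and 0.962 with LOC_OE replicates 2 and 3, against 0.982 between those 2. Of 10 intestinal epithelial markers, EPCAM, KRT8, KRT18 and CDX2 passed the filter on low values, while CDH1 and CDX1 were at 0 in every library. The summed FPKM of these markers was 39.4 to 41.5 in Vector and 48.4 to 89.6 in LOC_OE, highest in replicate 1, where KRT18 reached 67.5. No fibroblast, leukocyte or endothelial marker passed the filter, and the sum of each list was at most 0.203 FPKM. In bulk RNA, fewer expressing cells and less RNA per cell cannot be told apart.

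The 6 genes were expressed at low to moderate levels, and all 6 passed the filter on low values (0.5 FPKM or more in 3 or more libraries). In Vector the order of the levels was EXO1, MSH6, PMS2, MLH3, PMS1 and MSH3, with mean FPKM of 12.9 ± 0.320, 10.9 ± 0.280, 6.89 ± 0.457, 6.16 ± 0.242, 4.77 ± 0.430 and 1.37 ± 0.0668 (SD, n = 3 libraries each). No neighbours in this order had overlapping libraries, but the lowest library of PMS2, at 6.36 FPKM, lay just above the highest of MLH3, at 6.34. MSH3 was the least expressed, at percentile 28.96 of the mean FPKM of all genes tested, and EXO1 the most, at percentile 78.9. In LOC_OE the order was EXO1, MSH6, PMS1, PMS2, MLH3 and MSH3. EXO1 and MSH6 then overlapped, as did PMS1 with PMS2 and PMS2 with MLH3. The FPKM divide by the length of all annotated exons merged, which was 1.38 times the coding length for MSH3 and 2.69 times for MSH6, so the order of levels between genes depends on the annotation.

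**Figure D1:**
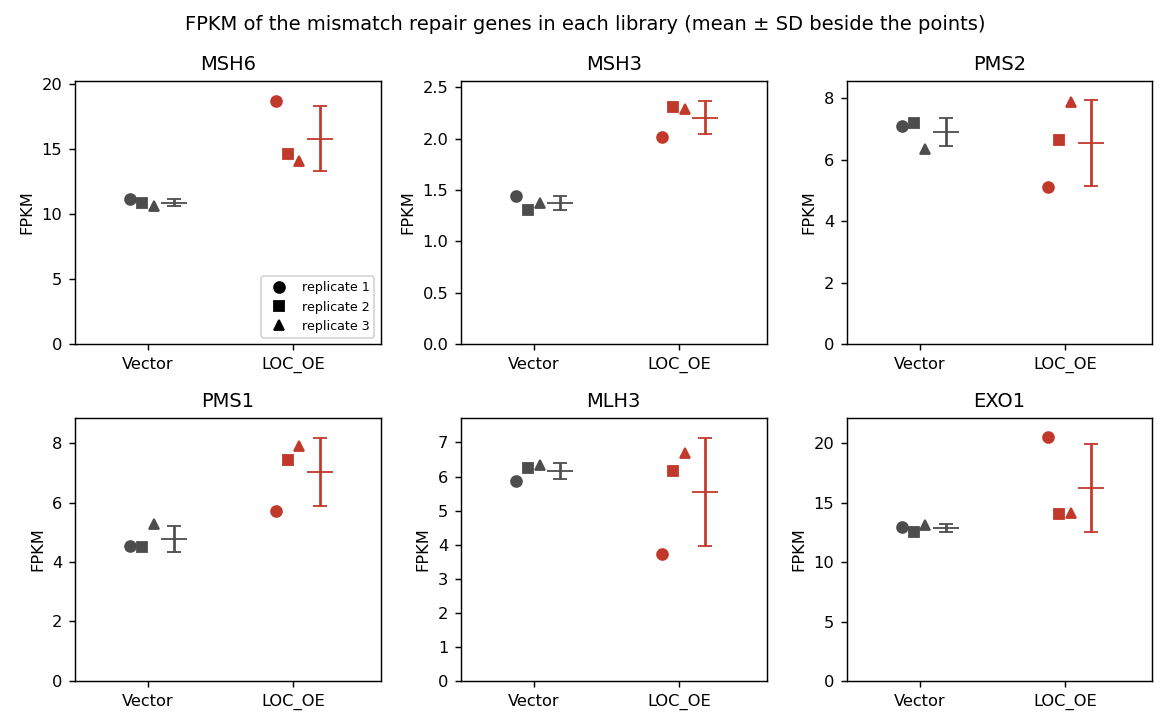
Each panel plots the FPKM of 1 mismatch repair gene in the 3 Vector libraries (grey) and the 3 LOC_OE libraries (red), with marker shapes for replicates and a bar for the mean ± SD. MSH6, MSH3, PMS1 and EXO1 show no overlap, with LOC_OE above Vector, while LOC_OE replicate 1 is the lowest of all libraries for PMS2 and MLH3.

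Of the 6 genes, MSH3, MSH6 and PMS1 rose in LOC_OE and no gene fell, by the limma test on log2(FPKM + 1) with a threshold of 0.05 on the adjusted p. Among all 16061 genes tested, 20.4% passed this threshold, 10.7% higher and 9.74% lower. The increases were moderate, with ratios of mean FPKM between 1.45 and 1.61. No member reached a log2 fold change of 0.58 on this scale, the equivalent of a fold change of 1.5, which 10.2% of all genes reached together with the adjusted p, 4.63% higher and 5.58% lower. The median log2 fold change of the 6 genes was 0.36, against 0.019 over all genes tested. All LOC_OE libraries lay above all Vector libraries for 4 of the 6 genes, and for 0 of the 6 all lay below. Among all genes tested, 24.4% lay above in this way, 20.9% below, and 45.3% in either direction.

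MSH6 (ENSG00000116062, chr2:47695530-47810101, plus strand), which gives the MutS complex its specificity for mismatches, had 11.2, 10.9 and 10.6 FPKM in Vector and 18.7, 14.6 and 14.1 FPKM in LOC_OE. Every LOC_OE library was above every Vector library, and replicate 1 was the highest. Its log2 fold change was 0.49 with a standard error of 0.12 (limma, adjusted p = 0.0332), and the ratio of the mean FPKM was 1.45. Without LOC_OE replicate 1 the log2 fold change was 0.37 (limma, adjusted p = 0.00388), and without LOC_OE replicate 3 the call also held (limma, adjusted p = 0.0418). Without any Vector replicate in turn, or without LOC_OE replicate 2, the adjusted p-value from limma was between 0.0624 and 0.124.

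MSH3 (ENSG00000113318, chr5:80654648-80876460, plus strand), the MutS homolog of the form that prefers larger loops, had 1.44, 1.304 and 1.37 FPKM in Vector and 2.02, 2.30 and 2.28 FPKM in LOC_OE. The groups did not overlap, and here replicate 1 was the lowest LOC_OE library. The values rested on few reads, 127, 114 and 120 in Vector and 152, 174 and 158 in LOC_OE. The log2 fold change of MSH3 was 0.43 with a standard error of 0.091 (limma, adjusted p = 0.0236). The ratio of its mean FPKM, taken without the added 1, was 1.61, the largest of the 6 genes. The added 1 FPKM shrinks the log2 fold changes of low genes such as MSH3. Its call held without LOC_OE replicate 1 (limma, adjusted p = 0.00968), and in the other 5 fits that each left out 1 library the adjusted p-value was between 0.0584 and 0.112.

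PMS1 (ENSG00000064933, chr2:189784085-189877629, plus strand), a MutL homolog, had 4.53, 4.50 and 5.26 FPKM in Vector and 5.73, 7.44 and 7.89 FPKM in LOC_OE. The groups did not overlap, but LOC_OE replicate 1 came close to Vector replicate 3. PMS1 thus rose by a log2 fold change of 0.47 with a standard error of 0.13 (limma, adjusted p = 0.0471), and the ratio of the mean FPKM was 1.47. Without LOC_OE replicate 1 the log2 fold change was 0.59 (limma, adjusted p = 0.00403). In the other 5 fits that each left out 1 library the adjusted p-value of PMS1 was between 0.0991 and 0.164.

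The values of all 6 genes, and the calls of these 3, also depended on the scale between libraries. With FPKM rescaled to equal sums in all libraries, the median log2 fold change of all genes tested moved from 0.019 to −0.18. On this scale MSH3, MSH6 and PMS1 were at 0.27, 0.24 and 0.25, still above 0 and above that median, and none passed (limma, adjusted p = 0.146, 0.0594 and 0.337). The other members moved down as well, EXO1 from 0.30 to 0.050, MLH3 from −0.16 to −0.38 and PMS2 from −0.080 to −0.30, and none of them passed on either scale (limma, adjusted p = 0.749, 0.269 and 0.271 with equal sums).

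PMS2 (ENSG00000122512, chr7:5973239-6009125, minus strand), the subunit that carries the nicking activity, had 7.11, 7.20 and 6.36 FPKM in Vector and 5.11, 6.64 and 7.89 FPKM in LOC_OE. The groups overlapped, and LOC_OE held both the lowest and the highest library. The log2 fold change was −0.080, with a 95% interval of −0.43 to 0.27 (limma, adjusted p = 0.728), and it was 0.064 without LOC_OE replicate 1. PMS2 shares near-identical sequence with its copies, so reads could have been split among them. Of its 11 listed copies, 6 passed the filter and 0 passed the adjusted p threshold. PMS2CL had 6.62, 6.59 and 6.36 FPKM in Vector and 5.25, 5.90 and 5.98 FPKM in LOC_OE (limma, adjusted p = 0.187), and PMS2P1 had 9.31 to 12.1 FPKM over the 6 libraries. With the reads of PMS2 and all its copies added, the log2 fold change was −0.11 (limma, adjusted p = 0.469).

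MLH3 (ENSG00000119684, chr14:75013764-75051532, minus strand), the MutL homolog of meiotic recombination, had 5.88, 6.24 and 6.34 FPKM in Vector and 3.73, 6.17 and 6.70 FPKM in LOC_OE. Only LOC_OE replicate 1 was below the Vector libraries. The log2 fold change was −0.16, with a 95% interval of −0.61 to 0.29 (limma, adjusted p = 0.570), and it changed to 0.055 without that library (limma, adjusted p = 0.543). The direction of MLH3 thus rested on 1 library.

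EXO1 (ENSG00000174371, chr1:241847967-241895148, plus strand), the exonuclease, had 12.9, 12.5 and 13.1 FPKM in Vector and 20.5, 14.1 and 14.2 FPKM in LOC_OE. The groups did not overlap, but replicates 2 and 3 were only slightly above Vector. The log2 fold change was 0.30, with a 95% interval of −0.065 to 0.66, and it did not pass the threshold (limma, adjusted p = 0.207). Without LOC_OE replicate 1 it was 0.13 (limma, adjusted p = 0.0874).

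The 6 genes did not share 1 pattern over the LOC_OE libraries. Relative to the Vector mean, LOC_OE replicate 1 was at 0.73 for MSH6 and 0.63 for EXO1 on the log2(FPKM + 1) scale, against 0.39 and 0.35 for MSH6 and 0.12 and 0.13 for EXO1 in replicates 2 and 3. The same library was at −0.60 for MLH3 and −0.37 for PMS2, and at 0.22 for PMS1, where replicates 2 and 3 were at 0.55 and 0.63. MSH3 was the most even, at 0.35, 0.48 and 0.47. The 25 genes of S phase and replication licensing had a median of 1.07 in LOC_OE replicate 1 and of 0.41 and 0.45 in replicates 2 and 3. Replicate 1 was thus the highest LOC_OE library for MSH6, for EXO1 and for the median of these genes. Whether the share of cells in S phase had a part in the values of MSH6 and EXO1 was not tested.

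**Figure D2:**
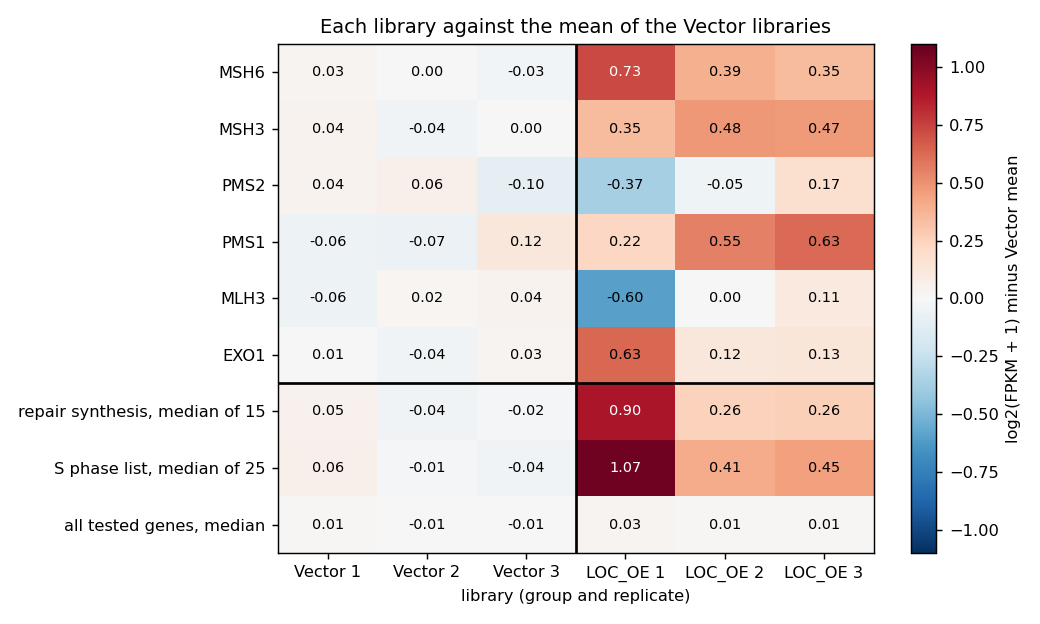
The colour map gives log2(FPKM + 1) minus the Vector mean for each mismatch repair gene (upper 6 rows) and the medians of 15 repair synthesis genes, 25 S phase genes and all tested genes (lower rows), in each library. LOC_OE replicate 1 is the highest library for MSH6, EXO1 and both gene lists and the lowest for MLH3 and PMS2, while the median of all tested genes is at most 0.032.

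Ratios between members within a library do not depend on library size. The ratios of MSH6 to MSH3, PMS2 to PMS1 and PMS2 to MLH3 compare subunits that pair with the same partner, and that of MSH6 to PMS2 compares a MutS with a MutL homolog. These 4 ratios of FPKM were chosen after the values were seen, and p-values were adjusted over them. The ratio of PMS2 to PMS1 was 1.57, 1.598 and 1.21 in Vector and 0.892, 0.892 and 1.00 in LOC_OE. It was lower in every LOC_OE library, with means of 1.46 ± 0.216 and 0.928 ± 0.0622 (SD, n = 3 libraries each). The two-sided exact permutation test gave p = 0.10, the smallest that 3 libraries against 3 allow, and 0.20 after adjustment, so this design cannot pass a threshold of 0.05. Leaving out each library in turn kept the difference between −0.66 and −0.46, and could not reverse it, because the groups did not overlap. Among single genes tested, 45.3% did not overlap between groups, PMS1 among them, and ratios of other genes were not taken.
The ratio of MSH6 to MSH3 was 7.76, 8.34 and 7.74 in Vector and 9.25, 6.32 and 6.17 in LOC_OE, with LOC_OE libraries on both sides of the Vector range (two-sided exact permutation test, p = 0.40, adjusted p = 0.50). PMS2 to MLH3 was 1.21, 1.15 and 1.00 in Vector and 1.37, 1.08 and 1.18 in LOC_OE, which overlapped (two-sided exact permutation test, p = 0.50, adjusted p = 0.50). MSH6 to PMS2 was 1.57, 1.51 and 1.66 in Vector and 3.65, 2.19 and 1.79 in LOC_OE, higher in every LOC_OE library (two-sided exact permutation test, p = 0.10, adjusted p = 0.20). The mean difference in MSH6 to PMS2 was 0.963 with all libraries and 0.409 without LOC_OE replicate 1.

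**Figure D3:**
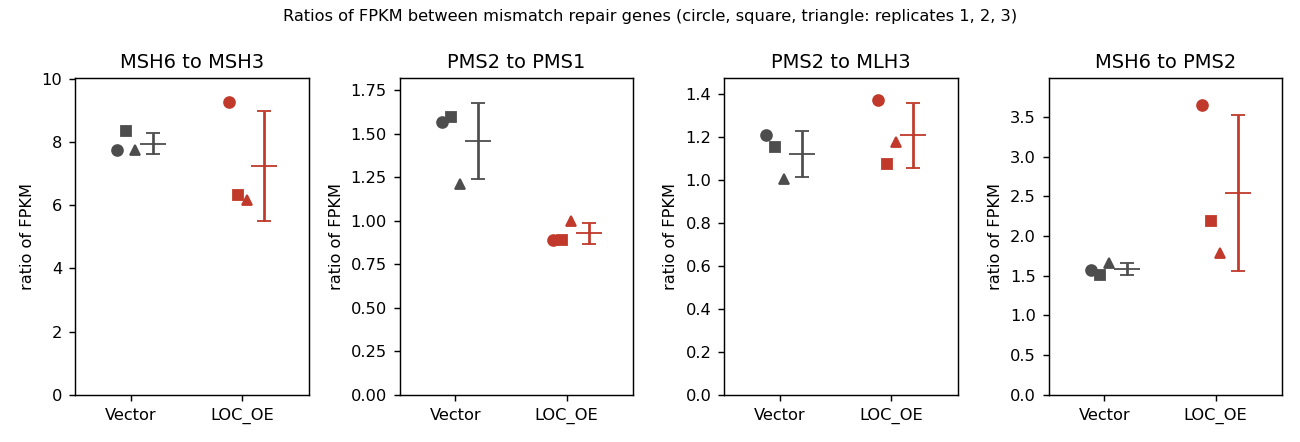
Ratios of FPKM between pairs of mismatch repair genes in each library, with grey for Vector, red for LOC_OE and bars for the mean ± SD. The ratio of PMS2 to PMS1 is at 1.21 or above in Vector and at 1.00 or below in LOC_OE, and the MSH6 to MSH3 ratio of LOC_OE replicate 1, at 9.25, is above the other libraries.

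PMS1, PMS2 and MSH6 lie close to or overlap a neighbour on the opposite strand. PMS1 starts 286 bases from ORMDL1, a regulator of sphingolipid synthesis, and 1.89% of its exon bases overlap. ORMDL1 had 14.1, 13.4 and 13.7 FPKM in Vector and 16.6, 20.4 and 19.3 FPKM in LOC_OE, which is 0.42 as a log2 fold change, with a standard error of 0.095 (limma, adjusted p = 0.0281). As for PMS1, replicate 1 was the lowest LOC_OE library of ORMDL1.
PMS2 starts 120 bases from AIMP2, a scaffold of the aminoacyl-tRNA synthetase complex, with no shared exon base. The groups of AIMP2 overlapped, at a log2 fold change of 0.31 (limma, adjusted p = 0.231). Unlike the pair of PMS1 and ORMDL1, replicate 1 was the highest LOC_OE library of AIMP2 and the lowest of PMS2. MSH6 shares 16.2% of its merged exon bases with FBXO11, a ubiquitin ligase subunit, whose log2 fold change was 0.21 (limma, adjusted p = 0.0960). Replicate 1 was the lowest LOC_OE library of FBXO11 and the highest of MSH6. The strand setting of the counting is not given in the sources used here, so reads in shared exons cannot be told apart.

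**Figure D4:**
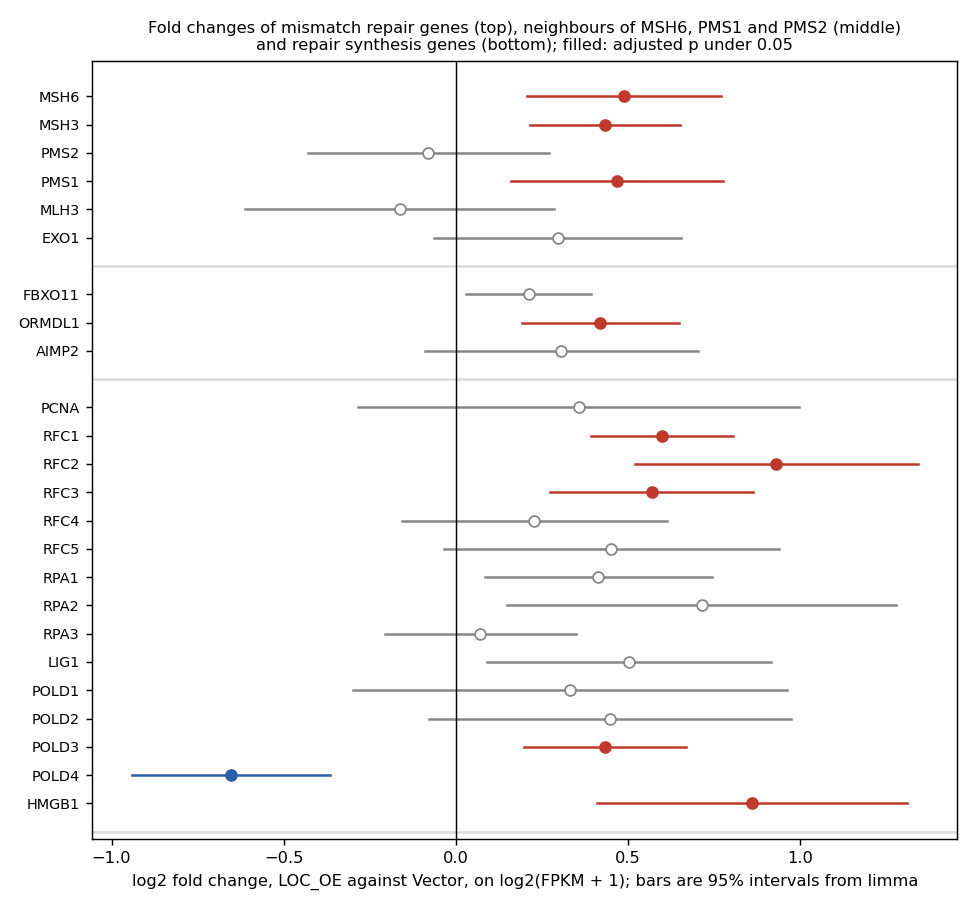
Points are log2 fold changes of LOC_OE against Vector on log2(FPKM + 1) with 95% intervals from limma, for the 6 mismatch repair genes (top), neighbours of MSH6, PMS1 and PMS2 (middle) and 15 repair synthesis genes (bottom), filled where the adjusted p-value is under 0.05. MSH6, MSH3 and PMS1 are filled and above 0, and POLD4 is the filled point below 0.

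Of 15 genes for the later steps of clamp loading, resynthesis and ligation, 5 rose and 1 fell. The log2 fold change was above 0 for 14 of them, and their median log2 fold change was 0.45, against 0.019 over all genes tested, of which 20.4% passed. RFC1, RFC2 and RFC3, subunits of the loader that opens PCNA, rose by 0.60, 0.93 and 0.57 on the log2 scale (limma, adjusted p = 0.00932, 0.0166 and 0.0252). RFC4 and RFC5, also subunits of this loader, had log2 fold changes of 0.23 and 0.45 and did not pass (limma, adjusted p = 0.349 and 0.161). HMGB1, a DNA-bending protein that can aid mismatch repair, rose by 0.86 (limma, adjusted p = 0.0258), and POLD3, an accessory subunit of DNA polymerase delta, by 0.43 (limma, adjusted p = 0.0281). POLD4, the smallest polymerase delta subunit, fell by 0.65 on the log2 scale (limma, adjusted p = 0.0166), from 3.35 to 3.46 FPKM in Vector to 1.39 to 2.10 FPKM in LOC_OE. PCNA had 146, 132 and 130 FPKM in Vector and 272, 148 and 132 FPKM in LOC_OE, so its groups overlapped (limma, adjusted p = 0.379). LIG1 was higher in every LOC_OE library, with a log2 fold change of 0.50 that did not pass (limma, adjusted p = 0.0853). Without LOC_OE replicate 1, 10 of the 15 genes passed, and without Vector replicates 1, 2 and 3 the number was 0, 0 and 1. Without LOC_OE replicate 2 it was 3. In the same fits, 5738 of all genes tested passed without LOC_OE replicate 1. Without Vector replicates 1, 2 and 3, 574, 249 and 391 of all genes passed. Without LOC_OE replicate 2, 1714 of all genes passed, against 3277 with every library.
Of 7 related genes, MSH4, a meiotic MutS homolog, was below the filter, at 0.344 to 0.573 FPKM. Of the other 6, which were MSH5, FAN1, MCM8, MCM9, SETD2 and WRN, 0 passed the adjusted p threshold, with log2 fold changes between 0.011 and 0.28. MSH5, the partner of MSH4 in meiosis, had 1.88, 1.92 and 2.03 FPKM in Vector and 1.85, 1.92 and 2.13 FPKM in LOC_OE, which overlapped. Of the 25 S phase genes, 12 rose and 0 fell, with a median log2 fold change of 0.62, and CDC45 and CDC6, which act at replication origins, had log2 fold changes of 1.12 and 0.98. The number of S phase genes that passed was 19 without LOC_OE replicate 1, 1 without each Vector replicate and 7 without LOC_OE replicate 2. The numbers of all genes passing in these fits, given above, moved in the same directions.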

How the data were processed

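RNA of 6 RKO libraries was sequenced by the authors as paired ends on an Illumina NovaSeq instrument from NEBNext Ultra libraries. The authors deposited 1 table of FPKM values. HISAT2 2.0.4, StringTie 1.3.0 and hg38 are named in the submitters' processing notes, and the annotation and strand setting are not given in the sources used here. All 58735 identifiers matched GENCODE version 29, and there were 0 unused columns of values. FPKM times the merged exon length gave whole multiples of 1 step per library for 100% of values above 0, within 0.02 reads, and so the reads behind each value; counting error only is covered by them. The FPKM were already scaled by median-of-ratios size factors and were used as deposited.

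The groups were compared on log2(FPKM + 1) by limma 3.58.1 (R 4.3.3), with a variance trend and group as the only term. The 16061 genes that reached 0.5 FPKM in 3 or more libraries were tested. P-values were adjusted over all genes tested by the Benjamini-Hochberg method. Rose and fell are used for an adjusted p-value under 0.05. Intervals are 95% intervals from the limma fit. The steps were tested on simulated counts with the same dispersion in both groups and no outlying library. That test does not cover data with a library that stands apart, as LOC_OE replicate 1 does. The members, lists and tests were chosen with earlier results of these data known. Named are all 6 members, any gene of the repair synthesis and related lists, the PMS2 copies, protein-coding genes that overlap exons of a member or start on the opposite strand within 1 kb, the 2 largest increases and 2 largest decreases that passed in the S phase, base excision and nucleotide excision lists, the 2 genes most like each member and cell type markers. A neighbouring gene that this rule names is not reported here. KRT18 is given as a single value chosen after it was seen. Alternatives tried were no filter, a filter on a mean of 1 FPKM, an added 0.1 in place of 1, equal sums of FPKM, median-of-ratios rescaling, no variance trend, limma voom on the recovered reads, a replicate block, leaving out each library, adding the PMS2 copies and a fold change of at least 1.5. Promoter and coding sequences are from RefSeq (GRCh38.p14) and GENCODE, and all 6 genes had both. Figures were drawn with matplotlib 3.10.9.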

Additional observations from a re-analysis of the deposited data

How the results depend on the processing

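The log2 fold changes of MSH3, MSH6 and PMS1 were above 0 in every alternative, but did not always pass the threshold. Most alternatives could not change the direction. The filters, the variance trend and the replicate block do not alter a log2 fold change. Leaving out 1 library could not reverse the sign for these 3 genes, because their groups did not overlap. When genes of any level were tested, with no filter, their log2 fold changes were 0.43, 0.49 and 0.47 (limma, adjusted p = 0.0738, 0.0608 and 0.0927), with equal sums of FPKM 0.27, 0.24 and 0.25, and with the replicate block 0.43, 0.49 and 0.47 (limma, adjusted p = 0.0645, 0.0507 and 0.0544). Each of these 3 settings left 0 of the 6 genes past the threshold, as did a fold change of at least 1.5 on log2(FPKM + 1). PMS1 was also lost with no variance trend (0.47, adjusted p = 0.0536 from limma). With limma voom on the recovered reads all 3 passed, with log2 fold changes of 0.68, 0.53 and 0.55 (limma, adjusted p = 0.0132, 0.0196 and 0.0312).

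With each library left out in turn, the log2 fold changes were between 0.41 and 0.48 for MSH3, 0.37 and 0.56 for MSH6, 0.39 and 0.59 for PMS1, −0.30 and 0.055 for MLH3, and −0.21 and 0.064 for PMS2. For EXO1 they were between 0.13 and 0.38, lowest without LOC_OE replicate 1. MLH3 and PMS2 changed sign only without LOC_OE replicate 1, at 0.055 and 0.064. In these fits 0 to 3 of the 6 genes, 0 to 10 of the repair synthesis genes, 1 to 19 of the S phase genes and 249 to 5738 of all genes passed, against 3277 of all genes with every library. Without a filter on low FPKM, 6 S phase genes passed.

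Deviations from the group means of equally numbered libraries had correlations across genes of 0.11, −0.034 and 0.12. Those of differently numbered libraries were between −0.13 and 0.058. These weak correlations do not settle whether the replicate numbers pair the libraries. With the replicate block, 2065 of all genes passed. The depth limits MSH3 most, with 114 to 174 reads per library.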

Other observations

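Genes of 2 other DNA repair pathways moved in both directions. Of 15 base excision repair genes, 3 rose and 2 fell, with a median log2 fold change of 0.13. UNG and NEIL3, glycosylases that remove uracil and oxidized bases, had log2 fold changes of 0.73 and 0.71, while the scaffold XRCC1 and the glycosylase NEIL1 fell by 0.48 and 0.39 on the log2 scale. Of 21 tested genes of nucleotide excision repair, 2 rose and 4 fell. DDB2 and XPC, which recognize DNA damage, fell by 1.04 and 0.79 on the log2 scale, and GTF2H1 and GTF2H3, subunits of TFIIH, had log2 fold changes of 0.50 and 0.45. These counts stand beside 20.4% of all genes passing the same threshold, and adjusted p-values of the genes named were between 0.00290 and 0.0449 from limma.

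Among 7302 protein-coding genes whose mean reached 5 FPKM, those most like each member over the 6 libraries, by Pearson correlation of log2(FPKM + 1), were ATP1B3 and SNRPD1 for MSH6, CD9 and BNIP2 for MSH3, CASD1 and CNOT6 for PMS1, PHC1 and RFX5 for PMS2, KIAA1211 and ZNF451 for MLH3, and PRPF4 and HEXIM1 for EXO1. The highest correlations of so many genes over only 6 libraries, 0.977 for RFX5 to 0.9997 for ATP1B3, are a description only, and the libraries fall into 2 groups.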
